A study of Mus musculus with 11 samples.

Results

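The genes described here are those of the cytosolic ribosomal proteins, followed across the 4 groups of sorted regulatory T (Treg) cells in the series. They were chosen by symbol, as Rpl or Rps with a number or as Rplp0, Rplp1, Rplp2 or Rpsa, leaving out symbols that contain -ps and the S6 kinases, and by a group mean of more than 10 counts, in any of the 4 groups, once libraries had been brought to a common total. Of 93 symbols with such a name, 88 passed, among 12932 genes that passed the same minimum and 52997 in the table. Rpl3l, Rpl10l, Rpl6l, Rpl32l and Rps12l1 did not pass. Of the 88, 51 carry a large subunit name and 37 a small subunit name. They include all 77 canonical genes listed for the ribosome, 46 of the large and 31 of the small subunit, and 11 related genes: Rpl22l1, Rpl36al, Rpl37rt, Rpl39l, Rpl7l1, Rps27l, Rps27rt, Rps3a2, Rps3a3, Rps4l and Rps19bp1, the last of which encodes a protein that binds Rps19 and is no ribosomal protein itself. Among the related genes, Rps3a2 and Rps3a3 are annotated as processed pseudogenes, and Rpl37rt and Rps4l as transcribed processed pseudogenes. Their symbols lack -ps, so the rule kept them. Fau, which encodes a ribosomal protein fused to a ubiquitin-like protein, falls outside the naming rule and is given separately.

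Each ribosome joins a small subunit, which reads the mRNA, to a large subunit, which forms the peptide bonds. Their proteins are made in matched amounts and built into rRNA in the nucleolus, and free ribosomal proteins are degraded. The mRNAs of most of these proteins begin with a C and a run of pyrimidines (the TOP motif), through which mTOR signaling controls their translation, and their genes are among the known targets of Myc. T cells make more ribosomes when they are stimulated through the TCR.

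Transcripts were measured by Smart-seq2, in 11 libraries, each made from 1000 clonotype+ Treg cells after double sorting, of C57BL/6 mice labelled as 15-week-old males. The cells carry vTreg53, the transgenic TCR of a single Treg clone from visceral adipose tissue (VAT), and were taken from the spleen and lymph nodes (Spl/LN) of transgenic mice and transferred into B6 CD45.1+ recipients. Fat1562 is the peptide that served as antigen: recipients were primed 6 weeks after transfer with CFA and boosted 1 week later with IFA. The groups were Spl/LN with adjuvant alone (n = 3), Spl/LN with adjuvant/Fat1562 (n = 3), VAT with adjuvant alone (n = 2) and VAT with adjuvant/Fat1562 (n = 3), and the labels call the controls unimmunized and name PBS where the methods describe adjuvant alone. All 4 groups thus share the transgenic TCR and the transfer, and they are a model of 1 TCR, not of VAT Treg cells at large. The methods call the libraries biological replicates, and the labels do not tie them to single mice, so the p-values measure the spread between these libraries.

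Total counts ran from 4490242 to 6570057. Foxp3, the defining factor of Treg cells, stood between 6747 and 10250 normalized counts in every library. Of the B cell markers, Ighm was at 6015 to 28547 normalized counts, and in VAT adjuvant alone replicate 2 the summed B cell markers reached 39066, against 6626 to 18653 in the other libraries. The summed normalized counts of 15 macrophage and dendritic cell markers were 893 to 2012, those of 12 adipocyte, stromal and endothelial markers 276 to 633, and those of 10 neutrophil and erythroid markers 12.5 to 36.0 per library. The 18 early response and heat shock genes that also mark tissue dissociation summed to 14682 to 20076 in Spl/LN and to 52849 to 131522 in VAT, with the higher values after adjuvant alone. The part of either in the values below was not tested, and in bulk libraries a change in which cells were sorted cannot be told apart from a change in RNA per cell.

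Start sites are shown for the members that changed most in a comparison and for the paralog pairs Rpl22 and Rpl22l1, and Rpl39 and Rpl39l, to show how far the pyrimidine-rich start is shared among them. Each sequence holds 15 bases before and 15 from the start that RefSeq annotates on GRCm38.p6, read 5′ to 3′ on the gene's strand. The longest run of C and T is in capitals, or the first of them where several are equally long, as in Rps7. Rps20 has no entry.
Rps2, chr17:24720048-24720077, + strand: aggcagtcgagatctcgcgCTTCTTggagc
Rpsa, chr9:120127751-120127780, + strand: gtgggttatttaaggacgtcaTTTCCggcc
Rpl28, chr7:4792950-4792979, + strand: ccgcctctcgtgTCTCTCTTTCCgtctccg
Rps26, chr10:128626492-128626521, - strand: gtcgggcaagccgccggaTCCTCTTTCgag
Rps27, chr3:90213634-90213663, - strand: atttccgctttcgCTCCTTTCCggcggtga
Rps27l, chr9:66946071-66946100, + strand: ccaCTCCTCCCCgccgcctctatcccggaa
Rps7, chr12:28635939-28635968, - strand: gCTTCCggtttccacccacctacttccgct
Rps4x, chrX:102189377-102189406, - strand: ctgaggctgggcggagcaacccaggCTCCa
Rpl7l1, chr17:46782642-46782671, - strand: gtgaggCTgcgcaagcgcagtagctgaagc
Rpl22, chr4:152325711-152325740, + strand: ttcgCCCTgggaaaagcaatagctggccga
Rpl22l1, chr3:28805493-28805522, + strand: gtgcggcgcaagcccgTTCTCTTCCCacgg
Rpl39, chrX:37085208-37085237, - strand: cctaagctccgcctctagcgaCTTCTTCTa
Rpl39l, chr16:10170213-10170242, + strand: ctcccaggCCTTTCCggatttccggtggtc

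The runs of Rps27, Rpl28, Rps26, Rps27l and Rpl22l1 were 9 to 11 bases long, and that of Rpl7l1 was 2 bases. The marked runs of Rps27l, Rps7, Rpl7l1, Rpl22 and Rpl39l end before the annotated start, so they lie outside the annotated mRNA. Among the 65 members with a RefSeq promoter entry, 27 (41.5%) had a run of 8 or more C and T in this window of 30 bases, against 13.9% of all 27025 genes with an entry. The letters CTTTC, on the coding strand and within the same window, were found in 18 members (27.7%) and in 4.76% of all genes. Such a CTTTC can lie inside a run already counted. On either strand of the 300 bases from 250 before to 50 after the start, CCGGAAG, the core that Ets factors such as GABP bind, was found in 26 members (40.0%) and 9.93% of all genes, and AAGATGGC, the core of the YY1 motif, in 6 (9.23%) and 3.19%. The motifs were chosen after the sequences were seen. A match is not a binding site, and the annotated start may lie some bases from the one these cells use.

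The 88 genes together took 3.27% to 4.49% of all counts in a library. In Spl/LN the share was 3.91%, 4.06% and 4.49% with adjuvant alone and 3.41%, 3.27% and 3.58% with adjuvant/Fat1562, so that every library with the peptide lay below every library without. In VAT it was 3.44% and 3.66% with adjuvant alone and 3.73%, 4.09% and 4.05% with adjuvant/Fat1562, the opposite order. The Spl/LN library of replicate 3 with adjuvant alone stood high: 83 of its 88 members were above their own mean over the libraries, against 24 and 59 in replicates 1 and 2 of that group. The median member deviated from its mean by 0.21 on the log2 scale there, which compares with a pooled within-group SD of 0.0914. The lowest median deviations, -0.24, -0.20 and -0.10, were those of the 3 Spl/LN libraries with Fat1562, in which 3, 5 and 13 of the 88 were above their mean. The pseudogene symbols (-ps) added no more than 0.0224% of counts, and leaving out the mitochondrially encoded genes moved the group means of the share by less than their SD.

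**Figure D1:**
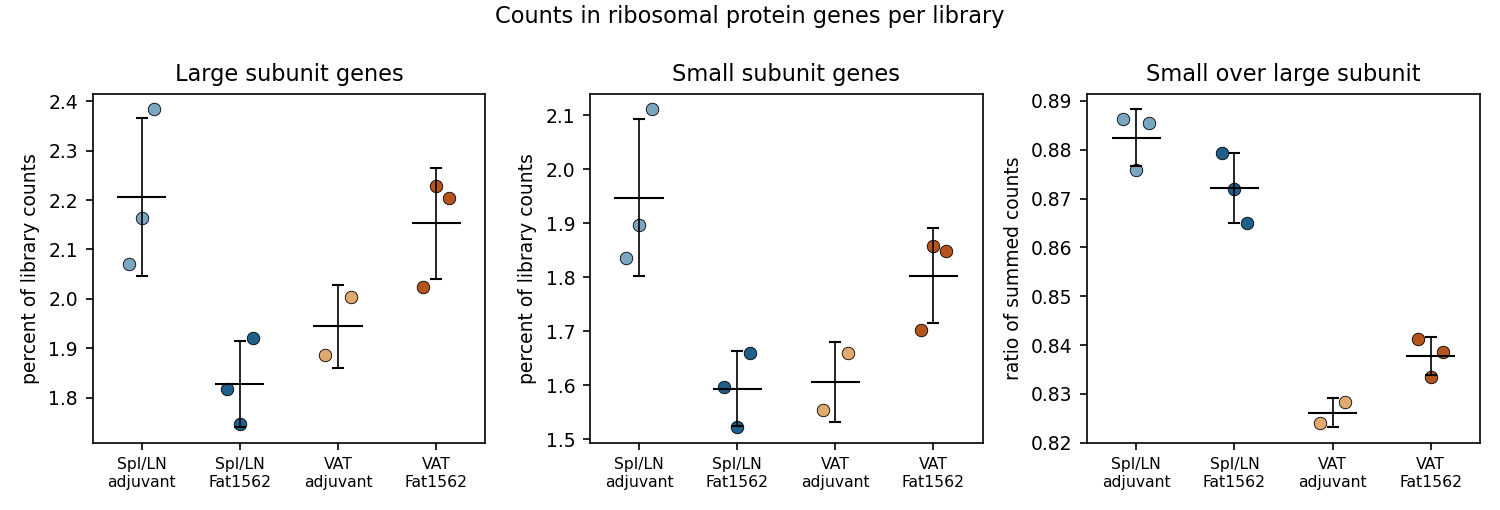
Share of library counts in the 51 large subunit genes and the 37 small subunit genes, and the ratio of their summed counts, in each of the 11 libraries. Points are libraries, lines are group means with the SD, and the axes do not start at 0. The shares are lowest in Spl/LN with Fat1562 and in VAT with adjuvant alone, and the ratio separates all Spl/LN from all VAT libraries.

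In each comparison, log2 fold changes are from edgeR in one fit of the 4 groups, the threshold for calling a gene was 0.05 on the p adjusted over all 12932 tested genes, and the levels given are normalized counts (TMM). On immunization of the Spl/LN cells, 8 ribosomal protein genes fell and nearly all others had estimates below 0. All 77 canonical genes had a negative estimate, the median over the 88 was -0.26, and the interquartile range of the members ran from -0.32 to -0.19, where the median of all tested genes was 0 to 2 decimals (-5.45e-06) with an interquartile range from -0.26 to 0.23. The test called 8 of 88 members lower, among them Rps7, Rps26, Rps4x, Rps9, Rps18, Rpl13 and Rplp1, which is 9.09% where 1.40% of all tested genes were called lower. At an unadjusted p under 0.05, 58 members were lower and 1 was higher. Called higher in this comparison were 2.58% of all genes, and no member (edgeR, unadjusted count as above; DESeq2 also gave 0). The groups did not overlap in 52 of the members, every Fat1562 library being the lower, against 9.84% of all tested genes. Other measures moved in the same libraries. The summed B cell markers were 17633 to 18653 with adjuvant alone and 12488 to 13608 with Fat1562, and mitochondrially encoded genes took 1.04% to 1.11% and 0.775% to 0.826% of counts, neither overlapping. Most of the B cell sum was Ighm, at 11917 to 17028 in Spl/LN. Of the 7 B cell markers tested, edgeR called 0 (1 at an unadjusted p under 0.05). Their median was -0.12, with 3 estimates positive and 4 negative. The antigen presentation genes H2-Aa and H2-Ab1 were the 2 of 6 tested macrophage and dendritic cell markers called lower. Ccr7 (-3.07 ± 0.29) was the 1 gene called among 9 tested naive and central T cell genes. The median of those 9 was -0.05, with 3 estimates positive. Pparg, Cxcr6 (1.40 ± 0.14) and Klrg1 were among 4 of 10 listed effector and VAT Treg genes called higher. The part of any of these measures in the ribosomal protein values was not tested.

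Rps4x, the X-linked gene of a small subunit protein, had 6353, 6584 and 6855 normalized counts with adjuvant alone and 5241, 4922 and 5399 with Fat1562. All 3 immunized libraries were lower, and the estimate was -0.35 ± 0.07 (SE; adjusted p = 0.00839). Rps26, which contacts the mRNA where it leaves the ribosome, was at 1706, 1751 and 2112 with adjuvant alone and at 1430, 1310 and 1542 with Fat1562 (-0.38 ± 0.10, adjusted p = 0.0376). Rps7, one of the ribosomal proteins that bind MDM2, fell from 1248, 1380 and 1692 to 1077, 1069 and 1122, with the largest called estimate (-0.40 ± 0.11, adjusted p = 0.0433). Among large subunit proteins, Rpl13 (2336, 2540 and 2636 to 1963, 1957 and 2083) and Rplp1 (4999, 5457 and 5789 to 4490, 4313 and 4666) were called, at -0.32 ± 0.08 and -0.27 ± 0.07.

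Members just as abundant were not called. Rpl4, which lines the exit tunnel, had an estimate of -0.20 (adjusted p = 0.084), and Rplp0, the base of the stalk that recruits elongation factors, -0.17 (adjusted p = 0.161). Rps3, at the entry of the mRNA channel, was at -0.13 (adjusted p = 0.266). Rplp2, the partner of Rplp1 on the stalk, was at -0.37 with an adjusted p of 0.0891, and its level in replicate 3 with adjuvant alone, 2810, stood above the 1952 and 1982 of the other two. The MDM2-binding proteins Rpl5, Rpl11, Rpl23, Rpl26, Rps15, Rps25 and Rps27a had estimates from -0.35 to -0.18, and Rps6, Rps19, Rps29, Rpl10 and Rpl7 from -0.44 to -0.21, none of them called. The estimates of Rpl3, Rpl22, Rpl38, Rpl39, Rpl41 and Rpl13a were -0.25 to -0.11.

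The number of calls in Spl/LN depended on single libraries. With replicate 2 of the Fat1562 group left out it was 0 by edgeR (40 lower at an unadjusted p under 0.05), with replicate 1 or 3 of that group left out 1 and 3, and with replicates 1, 2 or 3 of adjuvant alone left out 26, 2 and 1; without VAT Fat1562 replicate 2 it was 5. DESeq2 called 29. Without the high replicate 3 of adjuvant alone, 74 of the 77 canonical genes were still negative and the median was -0.17, with 25 members lower at an unadjusted p under 0.05 and Rps4x the member called.

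In VAT, 4 ribosomal protein genes rose on immunization, and the estimates of the others lay around a median slightly above 0. The median log2 fold change of the 88 was 0.11, against 0.01 over all tested genes, and 73 estimates were positive. The test called 4 members higher, Rps2, Rpsa, Rpl28 and Rps15a, or 4.55% of them, where 4.33% of all tested genes were called higher, so the share called was near the background. Called lower were 3.97% of all genes and no member of the 88 (edgeR; 14 members passed an unadjusted p under 0.05, all of them higher, and DESeq2 called 6 higher and 0 lower). Every Fat1562 library was above both adjuvant libraries for 35 members and for 21.1% of all genes.

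Rps2, a protein of the mRNA entry side of the small subunit, had 1142 and 1686 normalized counts in VAT with adjuvant alone and 2750, 3195 and 3459 with Fat1562. The groups were far apart, at a log2 fold change of 1.15 ± 0.14 (2.22-fold, adjusted p = 5.26e-05). In Spl/LN the same gene had 3110, 2809 and 2736 with adjuvant alone and 2584, 2400 and 2236 with Fat1562, so that the 2 VAT libraries with adjuvant alone were the lowest of all 11. The gene lies at chr17:24718116-24721929 (GRCm38, + strand); 83.0% of the 38-base stretches of its transcript occur in other annotated genes, 87 of them, most often Rps2-ps10, and it shares exon sequence with Snora64. How reads that match several genes were counted is not given in the sources used here.

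Rpsa, the small subunit protein also known as the laminin receptor, had 5034 and 5064 with adjuvant alone and 7022, 7717 and 7514 with Fat1562 in VAT, a rise of 0.55 ± 0.07 (adjusted p = 0.000115). Its 6 Spl/LN libraries lay within 5145 to 5600, so the 3 VAT Fat1562 libraries stood above the other 8. Rpl28, a large subunit protein, rose from 710 and 765 to 1020, 1109 and 1020 (0.51 ± 0.12, adjusted p = 0.0123). Its exons overlap those of Ube2s on the opposite strand. Rps15a rose from 2601 and 2654 to 3293, 3590 and 3525 (0.40 ± 0.11, adjusted p = 0.0335). The calls of Rps2 and Rpsa held in all 20 alternative fits, and they were the 2 members called without VAT adjuvant replicate 1, VAT adjuvant replicate 2 or VAT Fat1562 replicate 2. Rpl13a, known outside the ribosome for silencing inflammatory mRNAs, was at 281 and 266, and at 344, 401 and 343; its estimate of 0.41 was not called (adjusted p = 0.105).

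**Figure D2:**
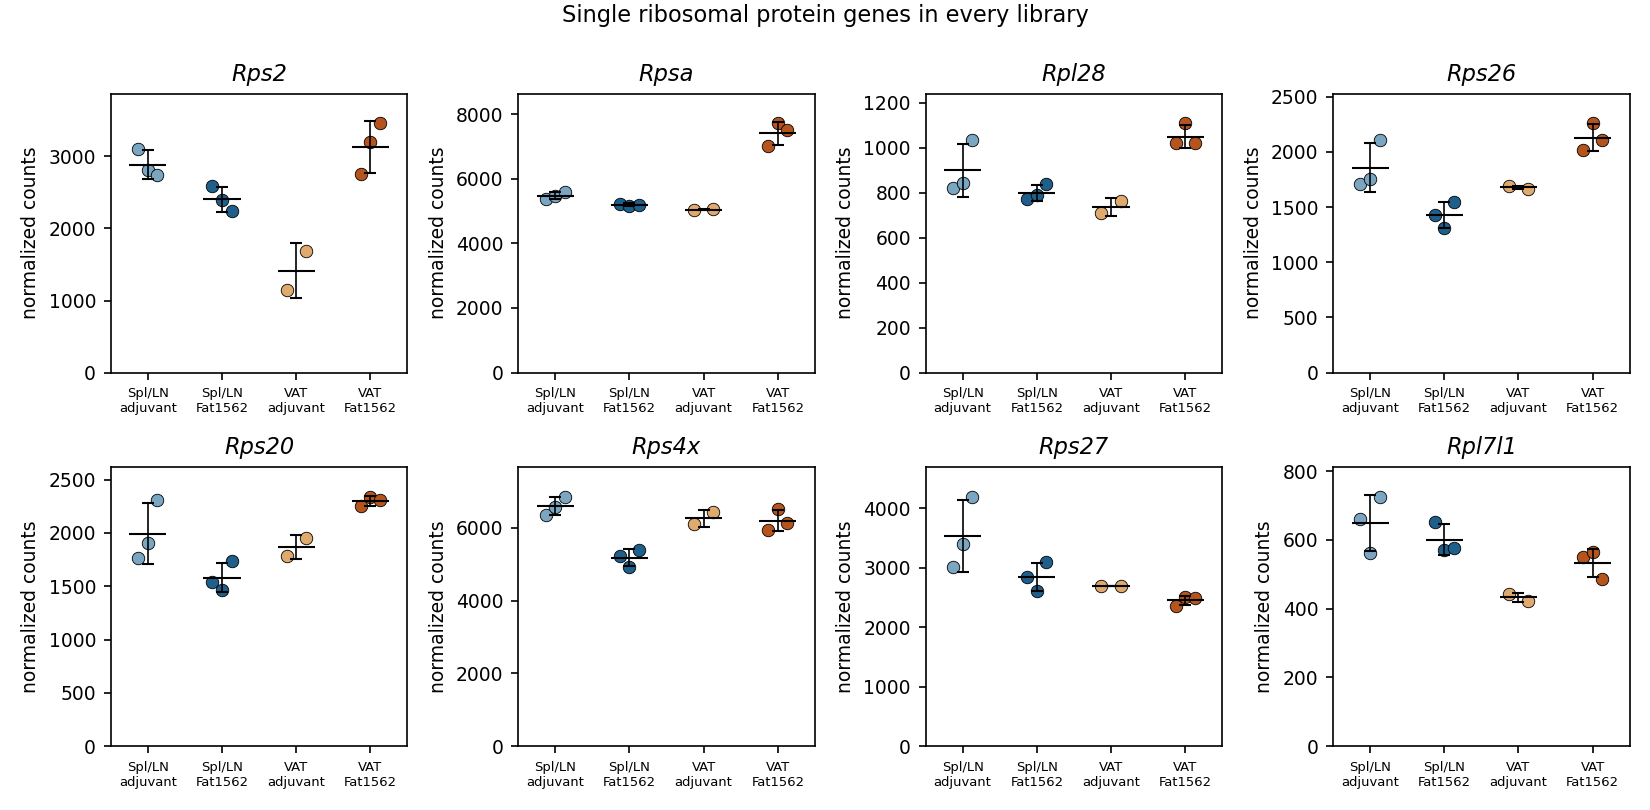
Normalized counts of 8 ribosomal protein genes in every library, with group means and SD; all axes start at 0. Rps2 is lowest in VAT with adjuvant alone (1142 and 1686), Rpsa is highest in VAT with Fat1562 (7022 to 7717), and Rps20 and Rps4x are lowest in Spl/LN with Fat1562.

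Nearly all members had a more positive response to Fat1562 in VAT than in Spl/LN by their estimates, and 9 passed the test. The interaction, the log2 effect in VAT minus that in Spl/LN, was positive for all 77 canonical genes and for 86 of the 88, with a median of 0.36 against 0.01 over all tested genes. It was called for 9 members, or 10.2%, where 1.70% of all genes were called in that direction and 2.02% in the other, in which 0 members were called (edgeR; 55 members passed an unadjusted p under 0.05, all positive, and DESeq2 called 19 positive and 0 negative). Rps2 had the largest value (1.41 ± 0.19, adjusted p = 0.000333), with Rps26 (0.72 ± 0.15, adjusted p = 0.00981), Rpl28 (0.68 ± 0.16, adjusted p = 0.0226), Rps20, Rpsa, Rps15a, Rpl12 and Rplp0 also called. Rps26, lower after Fat1562 in Spl/LN, had 1690 and 1668 in VAT adjuvant alone and 2017, 2259 and 2108 in VAT Fat1562, a difference that was not called by itself (0.34, adjusted p = 0.0674). Rps2, Rps26 and Rpsa were the 3 members called without Spl/LN Fat1562 replicate 2, VAT Fat1562 replicate 2, VAT adjuvant replicate 1 or VAT adjuvant replicate 2, each left out in turn; 4 members were called without Spl/LN Fat1562 replicate 1 and 5 without VAT Fat1562 replicate 3. Without Spl/LN adjuvant replicate 3 the median was 0.27, and 75 of the 77 canonical estimates were positive.

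Between the tissues, the ribosomal protein genes that edgeR called after Fat1562 were higher in cells from VAT. Of the 88 members 40 were called higher in VAT (45.5%), 25 of the large and 15 of the small subunit, where 8.26% of all tested genes were called higher and 6.73% lower. The number called lower among the members was 0 by edgeR, also at an unadjusted p under 0.05, and 0 by DESeq2. Quantile normalization with limma called 21 higher and 2 lower, and library totals alone gave 26 higher. The median log2 difference was 0.29 over the members and -0.01 over all genes. Every VAT library was above every Spl/LN library for 68 members, against 18.8% of all genes. For 2 members every VAT library was below every Spl/LN library, and neither was called. They were Rps27 (2849, 2616 and 3091 in Spl/LN, 2360, 2505 and 2492 in VAT) and Rpl7l1, whose values are given further on. This comparison and the one of immunization in Spl/LN share the 3 Spl/LN Fat1562 libraries, so low levels there enter both.

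Rps26 had the largest called difference (1430, 1310 and 1542 in Spl/LN, 2017, 2259 and 2108 in VAT; 0.58 ± 0.10, adjusted p = 0.00049). Rps27l, the paralog of Rps27 that p53 induces, followed with 354, 349 and 391 against 515, 606 and 491 (0.56 ± 0.14, adjusted p = 0.0108). Rps20, another MDM2-binding protein, had 1542, 1467 and 1734 against 2253, 2338 and 2308 (0.54 ± 0.10, adjusted p = 0.00131). In the 3 genes the tissues did not overlap. Of the 3 most abundant members, Rplp0 had 8451, 8804 and 8948 in Spl/LN and 10883, 12169 and 11776 in VAT (0.41 ± 0.06, adjusted p = 0.000221), Rpl4 was at 0.27 ± 0.06 (adjusted p = 0.00632) and Rps3 at 0.23 ± 0.06 (adjusted p = 0.0189). Rps3 lost its call in 6 of the 20 alternative fits and had an estimate of -0.0053 under quantile normalization.

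Of the proteins with known further roles, Rpl22, which developing αβ T cells need, had 1048, 1039 and 1208 in Spl/LN and 1473, 1587 and 1491 in VAT (0.47 ± 0.09, adjusted p = 0.00226). Its paralog Rpl22l1 was called as well, at 288, 262 and 303 against 346, 432 and 376 (0.44 ± 0.13, adjusted p = 0.0354), so both members of this pair were higher in VAT. Rps6, the target of the S6 kinases, was called at 0.32, Rps19, the gene most often affected in Diamond-Blackfan anemia, at 0.27, and Rpl3, Rpl7, Rpl10, Rpl23, Rpl26 and Rpl41 at 0.32 to 0.46. Not called were Rpl5 (0.28, adjusted p = 0.0564), Rpl11 (0.12), Rpl38, known for its effect on Hox mRNAs (0.24), Rpl39 (0.30), Rps15 (0.18), Rps25 (0.22), Rps27a (0.18), Rps29 (0.16) and Rplp2 (0.29). The number called was 20 without Spl/LN Fat1562 replicate 2 or VAT Fat1562 replicate 2, and 25 without Spl/LN Fat1562 replicate 1; in each of these 75 of the 77 canonical estimates were positive.

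**Figure D3:**
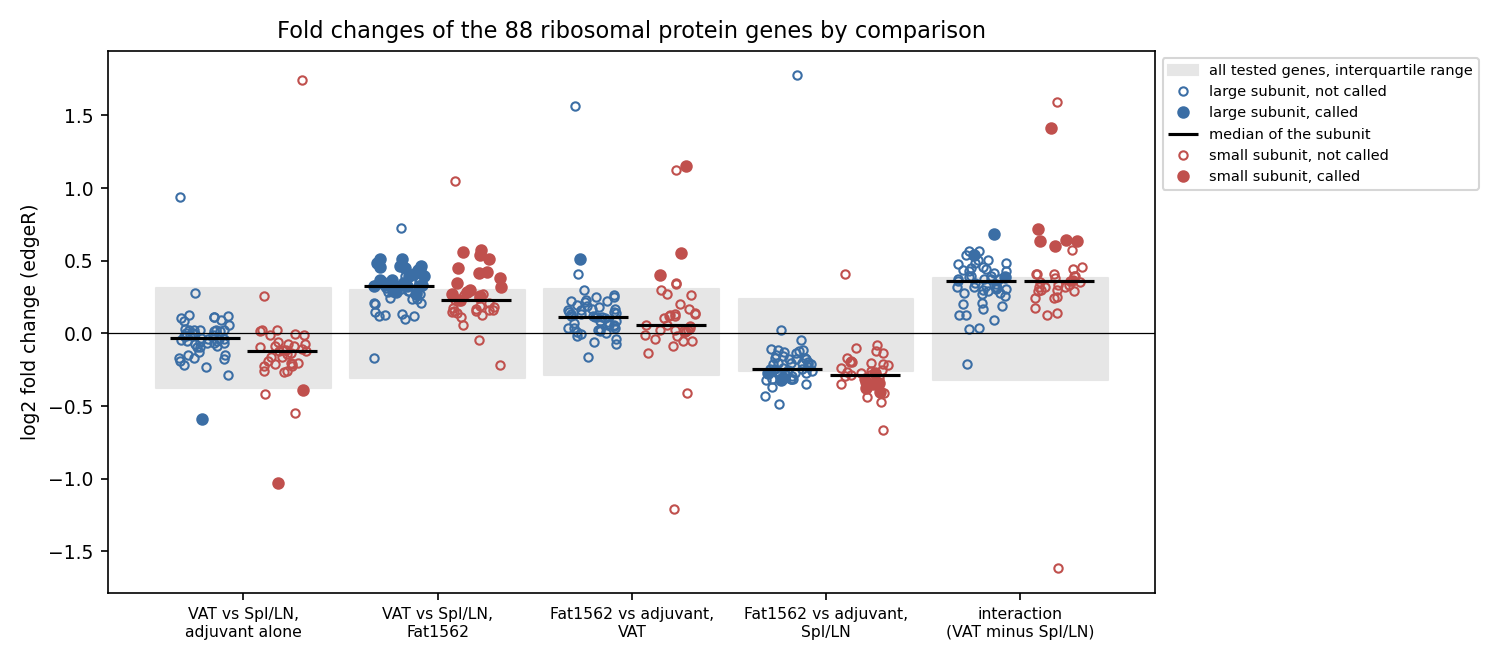
Log2 fold changes of the 88 members in the 5 comparisons, large and small subunit side by side, with the median of each subunit (black lines) and the interquartile range of all tested genes (gray). Filled points are called members, most of them (40) between VAT and Spl/LN after Fat1562; the points far from the rest are low-count genes such as Rpl39l and Rps4l, and Rps2.

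With adjuvant alone and TMM scaling, the tissues differed little in most members. The median difference of VAT against Spl/LN was -0.07, that of all tested genes -0.03, and 63 of the 88 estimates were negative. The test called 3 members lower, or 3.41%, where 7.18% of all genes were called lower and 9.09% higher. By edgeR 0 members were called higher, 9 members passed an unadjusted p under 0.05, and DESeq2 called 0 higher and 3 lower. For 19 members both VAT libraries were below the 3 Spl/LN libraries, as for 20.4% of all genes. The all-gene median was -0.18 when library totals alone set the scale, and the members then lay at -0.22, with 21 called lower, so both medians shifted together. Without Spl/LN adjuvant replicate 3 the median of the members was 0.02, above 0, and 2 were called. Quantile normalization called 32 members lower, at a median of -0.24. The unscaled share of all counts in the members was 3.44% and 3.66% in VAT and 3.91% to 4.49% in Spl/LN, without overlap.

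Rps2 was the largest of the 3 called differences, with the values given above (-1.03 ± 0.14, adjusted p = 5.01e-05). Rpl7l1, a nucleolar paralog of Rpl7, had 662, 561 and 725 in Spl/LN and 442 and 423 in VAT (-0.59 ± 0.14, adjusted p = 0.00658), both VAT libraries being lower; after Fat1562 it was at 653, 571 and 577 in Spl/LN and at 550, 564 and 486 in VAT, which was not called (-0.17, adjusted p = 0.394). Rps27 had 3009.5, 3396 and 4194 in Spl/LN and 2691 and 2698 in VAT (-0.39 ± 0.12, adjusted p = 0.0302). Of the stretches of Rps27, 98.7% occur elsewhere, most often in Rps27rt, and its call was lost in 5 of 20 alternative fits. Without VAT adjuvant replicate 2, Rps2 was the member called.

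The large and the small subunit moved together in direction and differed slightly in size. The large subunit median was above the small one by 0.09 on the log2 scale in both comparisons of VAT with Spl/LN (-0.03 against -0.12 with adjuvant alone, 0.33 against 0.23 with Fat1562), by 0.05 on immunization in each tissue (0.11 against 0.06 in VAT, -0.24 against -0.29 in Spl/LN), and by 0 to 2 decimals in the interaction (0.36 and 0.36). The pooled SD between libraries of the large minus small median deviation was 0.0192. On immunization the difference depended on the processing: in VAT it was 0.0048 with a mean above 50 as the filter, 0.0253 with quantile normalization and 0.0235 without Fat1562 replicate 3, and in Spl/LN it ran from 0.0273 to 0.0735 over left-out libraries. The ratio of summed small to summed large subunit counts, which no scaling of a library affects, was 0.886, 0.876 and 0.885 in Spl/LN with adjuvant alone, 0.879, 0.872 and 0.865 in Spl/LN with Fat1562, 0.824 and 0.828 in VAT with adjuvant alone, and 0.841, 0.833 and 0.839 in VAT with Fat1562. All 6 Spl/LN libraries lay above all 5 VAT libraries, while the immunized and control libraries lay within 0.865 to 0.886 in Spl/LN and within 0.824 to 0.841 in VAT. In VAT the 2 control libraries were both below the 3 with Fat1562, an order that did not hold without Rps2. Without Rps2 the ratio was 0.843 to 0.863 in Spl/LN and 0.808 to 0.817 in VAT, and with the 77 canonical genes alone 0.870 to 0.892 and 0.827 to 0.844, so the tissues remained apart. No test was run on these sums, since members are not replicates. Called small subunit members were 2 of 37 with adjuvant alone (VAT against Spl/LN), 6 of 37 in Spl/LN on immunization, 3 of 37 in VAT and 6 of 37 in the interaction, against 1, 2, 1 and 3 of the 51 large subunit members. In VAT against Spl/LN after Fat1562 the larger called share was that of the large subunit, 25 of 51 (49.0%) against 15 of 37 (40.5%). The shares of all tested genes called in these directions are given above with each comparison, and no difference between the subunits was tested.

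**Figure D4:**
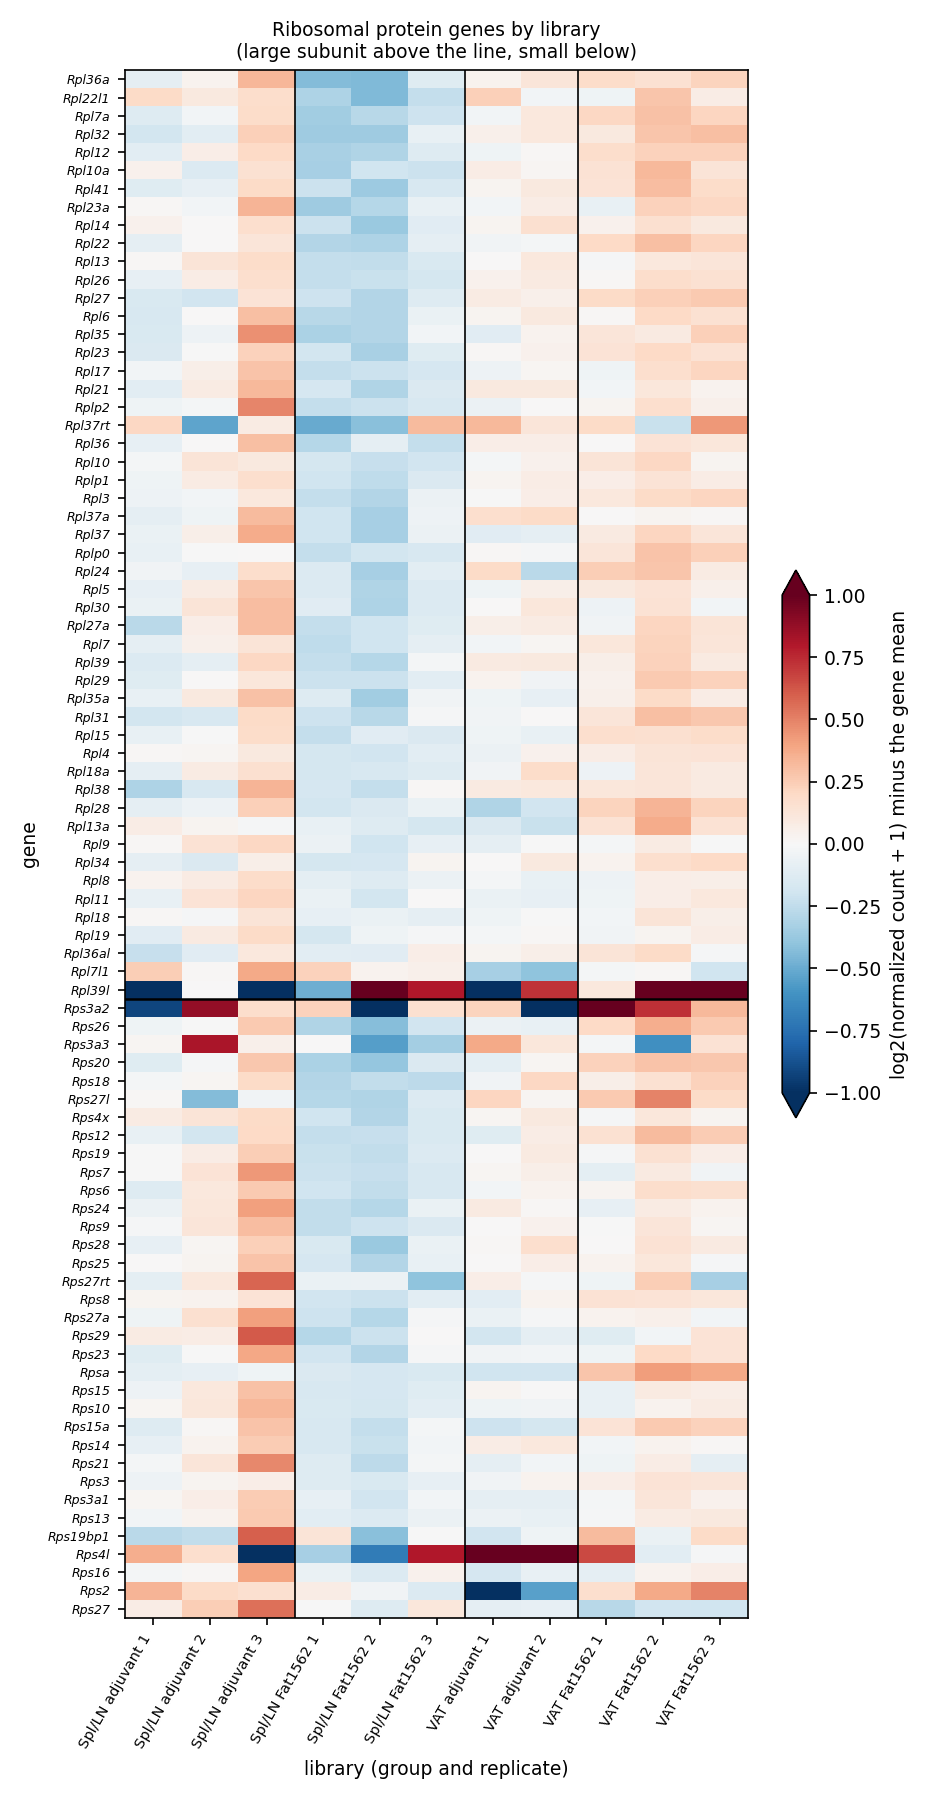
Log2(normalized count + 1) of each member minus its mean over the 11 libraries, without genes not reported here, large subunit above the line and small below, sorted within each by the mean in Spl/LN with Fat1562. The 3 Spl/LN Fat1562 columns are blue for most members, Spl/LN adjuvant replicate 3 is red for most, and Rps2 is deep blue in the 2 VAT adjuvant columns; values beyond 1 are drawn at the ends of the scale.

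The 11 related genes had a median of -0.11 on immunization in Spl/LN, with 0 called by edgeR and 2 at an unadjusted p under 0.05. In VAT against Spl/LN after Fat1562 10 of 11 estimates were positive (median 0.23) and 2 were called higher, Rpl22l1 and Rps27l, and in the interaction 9 of 11 were positive (median 0.30). A difference between them and the canonical genes was not tested. Rpl39l, the testis-rich paralog of Rpl39, had 1.9 to 52.9 normalized counts, spread widely within every group, and its estimate of 1.78 in Spl/LN was not called (adjusted p = 0.253). Rpl39 itself was at 1042 to 1492. Rps4l, annotated as a transcribed processed pseudogene, had 0 to 30.4 normalized counts and was not called in any of the 5 comparisons. Rpl36al was at 229 to 307 and Rps19bp1 at 75 to 152, with no called difference, and Rps27rt (22 to 44) and Rpl37rt (18.7 to 37.4) were near the level of noise. Fau had 2133 to 2880 normalized counts, with estimates of -0.18 to 0.15 and none called.

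Over the members, the share of 38-base stretches found in other annotated genes had a median of 58.8% and ran up to 98.7%, since ribosomal protein genes have many processed pseudogenes. The 12 members with under 25% shared include Rpl4 and Rps3, and also the related genes Rpl7l1, Rpl39l, Rps4l and Rps19bp1. The 12 had medians of -0.19 on immunization in Spl/LN and 0.11 in VAT. Between VAT and Spl/LN their medians were 0.25 with Fat1562 and -0.07 with adjuvant alone. In that order, 1 was called lower, 1 higher, 5 higher (41.7%) and 1 lower (Rpl7l1), where 1 call of 12 is 8.33%. Of all tested genes, 1.40%, 4.33%, 8.26% and 7.18% were called in those directions. The pseudogene symbols themselves were read at low counts: 33 of 277 passed the minimum, and their medians were -0.16, 0.06, 0.20 and -0.02 in the same comparisons.

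Other parts of the translation machinery were read from lists. Of 20 elongation factors and other mRNAs of the TOP class, 9 were called higher in VAT against Spl/LN after Fat1562, where 8.26% of all tested genes were, with a median of 0.24, led by the host gene Gas5 (0.69 ± 0.08), the nucleolar chaperone Npm1 (0.68 ± 0.08) and Nap1l1 (0.59 ± 0.11). On immunization in Spl/LN, where 1.40% of all genes were called lower, 2 of the 20 were, Npm1 (-0.49 ± 0.08) and Gas5 (-0.36 ± 0.08), at a median of -0.12. Of 30 ribosome biogenesis genes, 4 were called lower in Spl/LN, with a median of -0.25, among them Wdr43 (-0.49 ± 0.13) and the snoRNP proteins Nop58 (-0.45 ± 0.12) and Nop56 (-0.39 ± 0.10). In VAT against Spl/LN after Fat1562, 6 of 30 were called higher (median 0.25), with Nop58 at 0.69 ± 0.12. Initiation factors had 5 of 25 called higher and 1 lower in that comparison (median 0.19), and the RNA polymerase I and III list 1 of 23 higher (4.35%, below the share of all genes; median 0.08).

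Myc, a known activator of ribosomal protein and ribosome biogenesis genes, had 531, 484 and 484 normalized counts in Spl/LN with adjuvant alone and 291, 294 and 261 with Fat1562. All 3 immunized libraries were lower (-0.83 ± 0.14, adjusted p = 0.00235). In VAT it had 1047 and 1086 with adjuvant alone and 1146, 1222 and 797 with Fat1562 (-0.02, adjusted p = 0.972), and it was called higher in VAT in both tissue comparisons (1.09 ± 0.15 and 1.90 ± 0.14). Of the 25 listed regulators of ribosomal protein genes and TOP mRNAs, 2 were called higher and 1 lower in Spl/LN on immunization (2.58% and 1.40% of all genes). In VAT against Spl/LN, 4 were called higher and 5 lower with adjuvant alone (9.09% and 7.18% of all genes). With Fat1562, 4 were called higher and 6 lower (8.26% and 6.73%). Beside Myc, Cdkn1a, a p53 target, was far higher in VAT with adjuvant alone (5.14 ± 0.25) and with Fat1562 (3.55 ± 0.22). Mxd1 was also higher, at 2.53 ± 0.20 and 2.06 ± 0.18.

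The proteins of the mitochondrial ribosome form a separate set of genes. Of 83 such symbols 77 were tested. On immunization in Spl/LN 0 were called (edgeR; 3 passed an unadjusted p under 0.05), at a median of -0.05, and in VAT against Spl/LN after Fat1562 3 were called higher (3.90%, below the 8.26% of all genes) and 1 lower, at a median of 0.07. Their median on immunization in VAT was 0.12, close to the 0.11 of the cytosolic set, with Mrps6 at 1.42 ± 0.14 among the 2 called.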

How the data were processed

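The authors deposited 1 table of counts, whole numbers per gene symbol and library without normalization; per the labels, STAR 2.5.4, featureCounts and the build mm10 were used, and the paper's methods name Cuffquant. The annotation, the use of strand and the treatment of reads that match several genes are not given in the sources used here. Reads were paired, of 38 bases, and no molecular identifiers are named, so a count is of amplified fragments.

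One edgeR fit of the 4 groups (version 4.0.16, R 4.3.3, quasi-likelihood test, TMM scaling, prior count 0.125) covered the genes whose mean exceeded 10 in any group, with Benjamini-Hochberg adjustment over all of them. The biological coefficient of variation was 19.1%. Libraries of the same group gave a chi-square of 5.27 to 11.0 per degree of freedom, so none was a copy of another. SE is that of the log2 fold change and SD that between libraries. The members and gene lists were chosen with earlier results of these data known. Named genes were the members with known roles in the ribosome, in MDM2 binding or in T cells and the paralogs, the 3 largest called changes per comparison and direction, and the 3 most abundant; other called members and Rps15a and Myc were named after their values were seen. Some genes that enter the counts are not reported here by name. Shared stretches and positions came from GENCODE vM21 (GRCm38). The steps were tested on simulated data. Alternatives were DESeq2 1.42.0, limma 3.58.1 with quantile normalization, other scalings and filters, the groups compared alone, a replicate block and each of the 11 libraries left out.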

Additional observations from a re-analysis of the deposited data

Results flagged for a closer look

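The effect of Fat1562 on 9 ribosomal protein genes differed between VAT and Spl/LN by the interaction test of edgeR (adjusted p under 0.05 over all tested genes). The effect in VAT minus that in Spl/LN was 1.41 on the log2 scale for Rps2, 0.72 for Rps26, 0.68 for Rpl28, 0.63 for Rps20, 0.63 for Rpsa, 0.60 for Rps15a, 0.54 for Rpl12 and 0.39 for Rplp0. For Rps2 and Rpsa the estimate in VAT (1.15 and 0.55) was the larger part, with -0.26 and -0.08 in Spl/LN, neither called there. For Rps26, Rpl12 and Rps20 the estimates in VAT were 0.23 to 0.34 and those in Spl/LN -0.38 to -0.31, of which that of Rps26 in Spl/LN was called.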

How the results depend on the processing

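The median fold changes of the members in the 5 comparisons kept their sign under 9 other settings (8 for the interaction, which the groups compared alone cannot give), and with each of 11 libraries left out apart from VAT against Spl/LN with adjuvant alone (-0.12 to 0.02, above 0 without Spl/LN adjuvant replicate 3). Left out in turn, the libraries gave 20 to 46 members called higher in VAT against Spl/LN after Fat1562, 1 to 4 called lower with adjuvant alone, 2 to 6 called higher on immunization in VAT, 0 to 26 called lower in Spl/LN, and 3 to 12 in the interaction, whose median ran from 0.27 to 0.42. The large minus small median ran from 0.078 to 0.124 (VAT against Spl/LN, adjuvant alone), 0.0562 to 0.11 (Fat1562), 0.0235 to 0.0523 (immunization in VAT), 0.0273 to 0.0735 (in Spl/LN) and -0.029 to 0.011 (interaction). In VAT adjuvant alone 1 library then remained, assumed to vary like the other groups. Over the left-out libraries, all genes called numbered 1289 to 2378 in VAT against Spl/LN after Fat1562 (1938 in the main fit). On immunization in Spl/LN they numbered 190 to 502 (515).

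DESeq2 called 29 members lower in Spl/LN and 19 in the interaction. With library totals alone, 21 were called lower in VAT against Spl/LN with adjuvant alone (median -0.22), 26 higher with Fat1562, 7 higher on immunization in VAT, 25 lower in Spl/LN and 22 in the interaction. Quantile normalization gave 32 (median -0.24, large minus small 0.14), 21 higher and 2 lower, large minus small 0.0253 in VAT, 38 and 27, and it turned the estimates of Rplp0 and Rpl3 with adjuvant alone to -0.25 and -0.31 and that of Rps3 with Fat1562 to -0.0053; of these 3, Rps3 alone was called with TMM. A mean above 50 gave 16 lower in Spl/LN and a large minus small median of 0.0048 in VAT, and the groups compared alone gave 5 lower in Spl/LN. Without Rps2, an alternative chosen after seeing the data, the mean small to large ratios were 0.857, 0.847, 0.813 and 0.811 in the order of the groups. The number of all genes called, in either direction, moved as well. In VAT against Spl/LN it was 1410 to 2534 with adjuvant alone (2103 in the main fit) and 1860 to 2586 with Fat1562 (1938). On immunization it was 990 to 1357 in VAT (1074) and 392 to 793 in Spl/LN (515), and in the interaction 437 to 783 (481). The cause of these shifts was not tested.

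Whether replicate numbers pair the libraries is not known. The correlation of deviations was -0.07 to 0.08 for 15 same-numbered pairs and -0.11 to 0.08 for 30 others. Between Spl/LN and VAT libraries of the same number, it was 0.071 and 0.080 with adjuvant alone and 0.077, 0.022 and 0.059 with Fat1562. Those of the same treatment but different numbers gave -0.11 to 0.05. The 2 VAT adjuvant libraries deviate from their mean as mirror images, so their values are not independent. A shared mouse was not tested. With the replicate block, 40 members were called higher in VAT against Spl/LN after Fat1562, 2 lower with adjuvant alone, 3 higher on immunization in VAT, 12 lower in Spl/LN and 8 in the interaction.

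Over the single named genes and all settings, 110 values lost a call, 107 gained one and 3 changed sign with a call on either side. The other 3626 were called in the same direction in both fits or called in neither. Changes of sign among values called in neither fit were not counted. Depth limits Rpl39l, Rps4l, Rps3a2, Rps3a3, Rps27rt and Rpl37rt, whose counts were low.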
